A study of Schizosaccharomyces pombe with 6 samples.

Results

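The genes described here drive and carry out the division cycle of fission yeast. They are the genes named cdc for cell division cycle, other than the Hsp90 co-chaperone gene cdc37, together with the cyclin genes cig1, cig2, puc1 and pas1, the inhibitor gene rum1 and the kinase genes wee1 and mik1. The array annotation gives 35 of them a probe set of their own, out of 2917 S. pombe probe sets paired with 1 gene. The reference holds 37 genes whose symbols meet this description, and cdc73 and cdc123, the other 2, were not analysed here. Wild type cells of strain 972 h-, grown in liquid medium to an OD600 of 0.5, were either left untreated or given 50 µM of the hydrogen sulfide donor NaHS for 30 min at 30°C. Each group had 3 cultures, numbered 1 to 3 in the labels, with 1 array (Affymetrix Yeast Genome 2.0) for every culture. The methods of the study state 3 biological repeats, while the labels mark every culture as biological rep1. All cultures were of 1 strain and were not described as synchronised, so every value is an average over cells in different phases of the cycle. A change in the share of cells in a phase and a change of RNA per cell cannot be told apart.

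In fission yeast a single cyclin-dependent kinase, Cdc2, orders the whole cycle. Cyclins bind and steer it, the inhibitor Rum1 holds it back in G1, the kinases Wee1 and Mik1 block it by phosphorylating a tyrosine, and the phosphatase Cdc25 removes that phosphate at entry to mitosis. Entry into S phase runs through MBF, a transcription factor that contains Cdc10 and switches on genes such as cdc18, cdc22, cig2 and mik1. After mitosis a cascade called the septation initiation network triggers closure of an actomyosin ring. Much of this control acts on proteins, through phosphorylation and breakdown, and array signals measure RNA only.

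Values are log2 signals, on which a doubling adds 1, and differences are NaHS minus untreated. They were tested with limma over 4966 probe sets, with p-values adjusted by Benjamini-Hochberg, and a gene was called changed at an adjusted p below 0.05. All 35 genes were measured above background on every array. Their lowest single value was 6.33, whereas the 30 probe sets on the same arrays for CDC, CLN and CLB genes of budding yeast, whose RNA was not present, had mean log2 signals of at most 2.39 with a median of 0.44. The median over the tested probe sets lay between 9.49 and 9.58 on each array.

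Of the 35 genes, pas1 rose and no other passed the test. This was 2.86% of the genes, where 3.97% of all tested probe sets were called higher, and none was called lower, where 3.66% of all were. At an unadjusted p below 0.05 the limma test gave 3 genes, pas1, puc1 and cdc48, all with positive differences, against 22.5% of all tested probe sets. The median difference over the 35 genes was 0.0098 and that over all tested probe sets was 0.0096. The sizes of the differences were small in comparison, with a median of 0.08 regardless of sign, against 0.14 for all tested probe sets. In 31 of the 35 genes (88.6%) the difference was under 0.2 in size, and this held for 63.8% of all tested probe sets. The rise of pas1 alone was above 1.5-fold, and 2.42% of all tested probe sets were called higher by more than that.

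**Figure D1:**
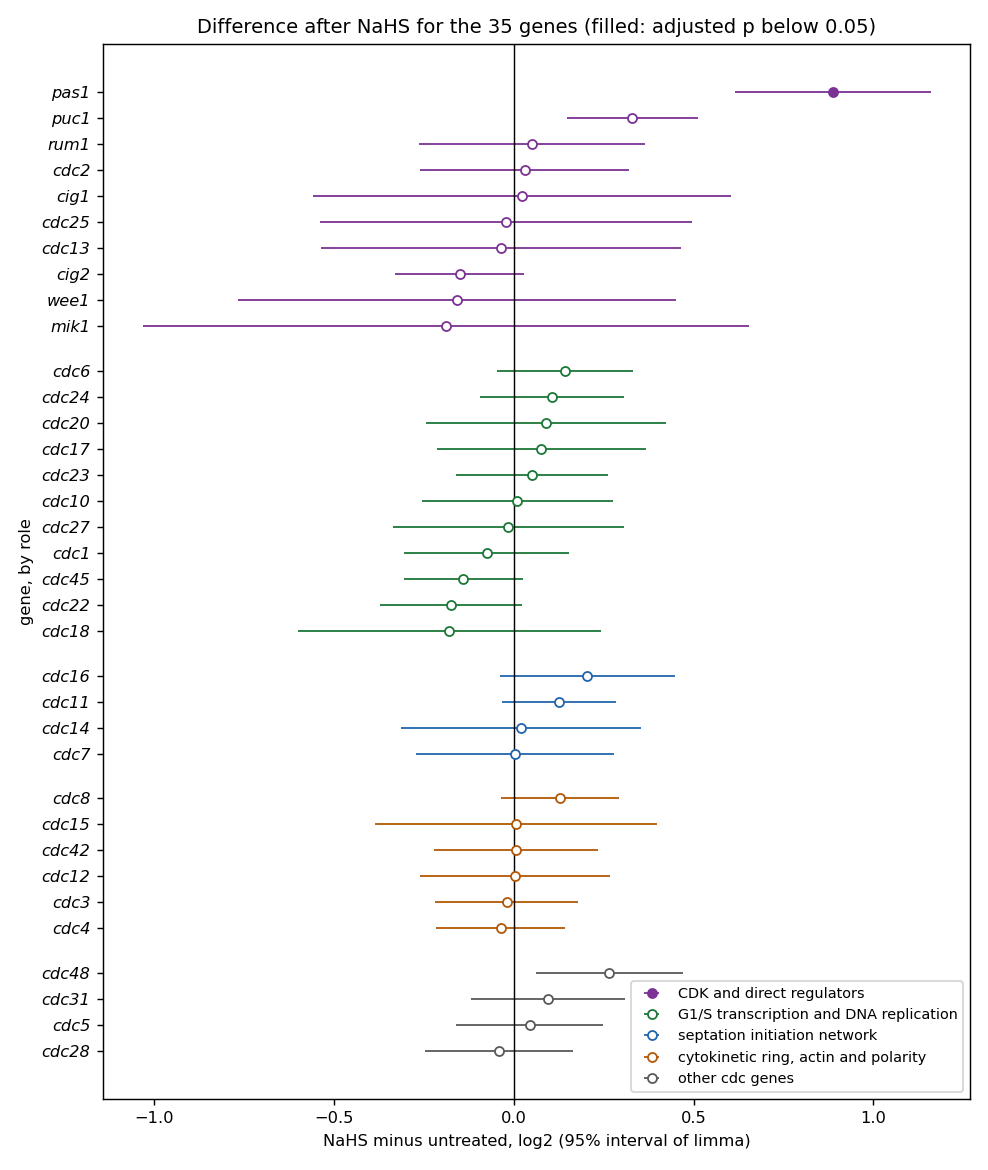
Difference in log2 signal after NaHS (x axis, NaHS minus untreated) for each of the 35 genes (y axis, grouped and coloured by role), from limma with 3 arrays per group. Points are the differences, bars their 95% intervals, and a filled point marks an adjusted p below 0.05, which pas1 alone reached with 0.89. The longest bar is that of mik1, from -1.03 to 0.65.

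The gene pas1 (SPAC19E9.03) encodes a cyclin that pairs with the kinase Pef1 and activates the MBF transcription factor at the start of the cycle. Its log2 signal was 10.29, 10.11 and 10.11 in untreated replicates 1, 2 and 3 and 11.22, 10.89 and 11.06 in the NaHS replicates. The groups did not overlap, and the lowest NaHS array stood above the highest untreated one. The mean went from 10.17 ± 0.11 (SD, n = 3) to 11.06 ± 0.17 (SD, n = 3). The difference was 0.89 (standard error 0.11, limma adjusted p = 0.00946), a 1.85-fold rise with a 95% interval from 1.53 to 2.24. Between cultures of the same number the differences were 0.93, 0.78 and 0.95. With 1 array left out, pas1 passed in 4 of 6 fits. The call was lost without untreated replicate 2 (adjusted p = 0.0607) and without untreated replicate 3 (adjusted p = 0.0619), while the difference stayed at 0.86 in both. Pef1 is the kinase partner of Pas1. The probe set of pef1 read 7.99, 5.48 and 5.34 in untreated replicates 1, 2 and 3 and 8.25, 5.56 and 4.94 after NaHS, so that both replicate 1 arrays stood far above the others. Its difference was -0.02 with a standard error of 1.09 and did not pass (limma adjusted p = 0.998).

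The second cyclin gene with a positive difference was puc1, whose product is a G1-type cyclin. Its log2 signal was 8.20, 8.26 and 8.17 in the untreated cultures and 8.45, 8.62 and 8.55 after NaHS. Every NaHS array lay above every untreated one. The difference of 0.33 (standard error 0.07), a 1.26-fold higher level with a 95% interval from 1.11 to 1.43, fell just short of the threshold (limma adjusted p = 0.053). It passed when the replicate number was taken as a block (adjusted p = 0.0111).

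The 3 B-type cyclin genes did not follow pas1 and puc1 in these values. The gene cdc13, for the mitotic cyclin, read 11.10, 10.60 and 10.61 in untreated cells and 11.08, 10.59 and 10.53 after NaHS. The difference of -0.03 (95% interval -0.54 to 0.47) was far smaller than the gap of replicate 1 to the others. The gene cig1, for a further B-type cyclin, read 8.82, 8.33 and 8.30 without and 8.94, 8.39 and 8.18 with NaHS, a difference of 0.02 (95% interval -0.56 to 0.60). The gene cig2, for the B-type cyclin that acts at the onset of S phase, read 10.25, 10.17 and 10.10 and then 10.01, 10.07 and 9.99. Here all NaHS arrays were below all untreated ones, but the difference of -0.15 (standard error 0.07) did not pass (limma adjusted p = 0.305). Whether the differences of these 3 genes depart from those of pas1 and puc1 was not tested.

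The kinase gene cdc2 was close to level, with 9.92, 9.64 and 9.67 in untreated cells and 9.95, 9.72 and 9.65 after NaHS. Its difference was 0.03, and the 95% interval of the fold ran from 0.835 to 1.25. The inhibitor gene rum1 read 8.24, 8.06 and 7.88 and then 8.27, 8.13 and 7.94, a difference of 0.05 (95% interval -0.26 to 0.37). In both genes the groups overlapped and the spread within a group was wider than the difference between groups. The phosphatase gene cdc25 read 9.78, 9.34 and 9.22 without and 9.78, 9.29 and 9.20 with NaHS, a difference of -0.02 (95% interval -0.54 to 0.50).

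The genes for both inhibitory kinases had negative differences with wide intervals. The gene wee1 read 7.84, 7.31 and 7.21 in untreated cells and 7.71, 7.21 and 6.95 after NaHS, a difference of -0.16 (standard error 0.25, limma adjusted p = 0.829). The gene mik1 read 7.54, 6.64 and 6.60 and then 7.28, 6.61 and 6.33, a difference of -0.19 (standard error 0.34, limma adjusted p = 0.862). In both genes the NaHS array was below the untreated array of the same number in all 3 replicates, yet the groups overlapped, and replicate 1 was high in both. The pairing of replicates 2 and 3 is not settled by their numbers. Crossed, NaHS replicate 2 lay just above untreated replicate 3, at 7.2144 and 7.2066 in wee1 and 6.6095 and 6.6044 in mik1. With the replicate number as a block the standard errors fell to 0.05 for wee1 and 0.07 for mik1, and neither gene passed (adjusted p = 0.0833 and 0.0918). The 95% interval for mik1 from the fit without a block, 0.489 to 1.57 in fold, took in both no change and a change of 1.5-fold in either direction.

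**Figure D2:**
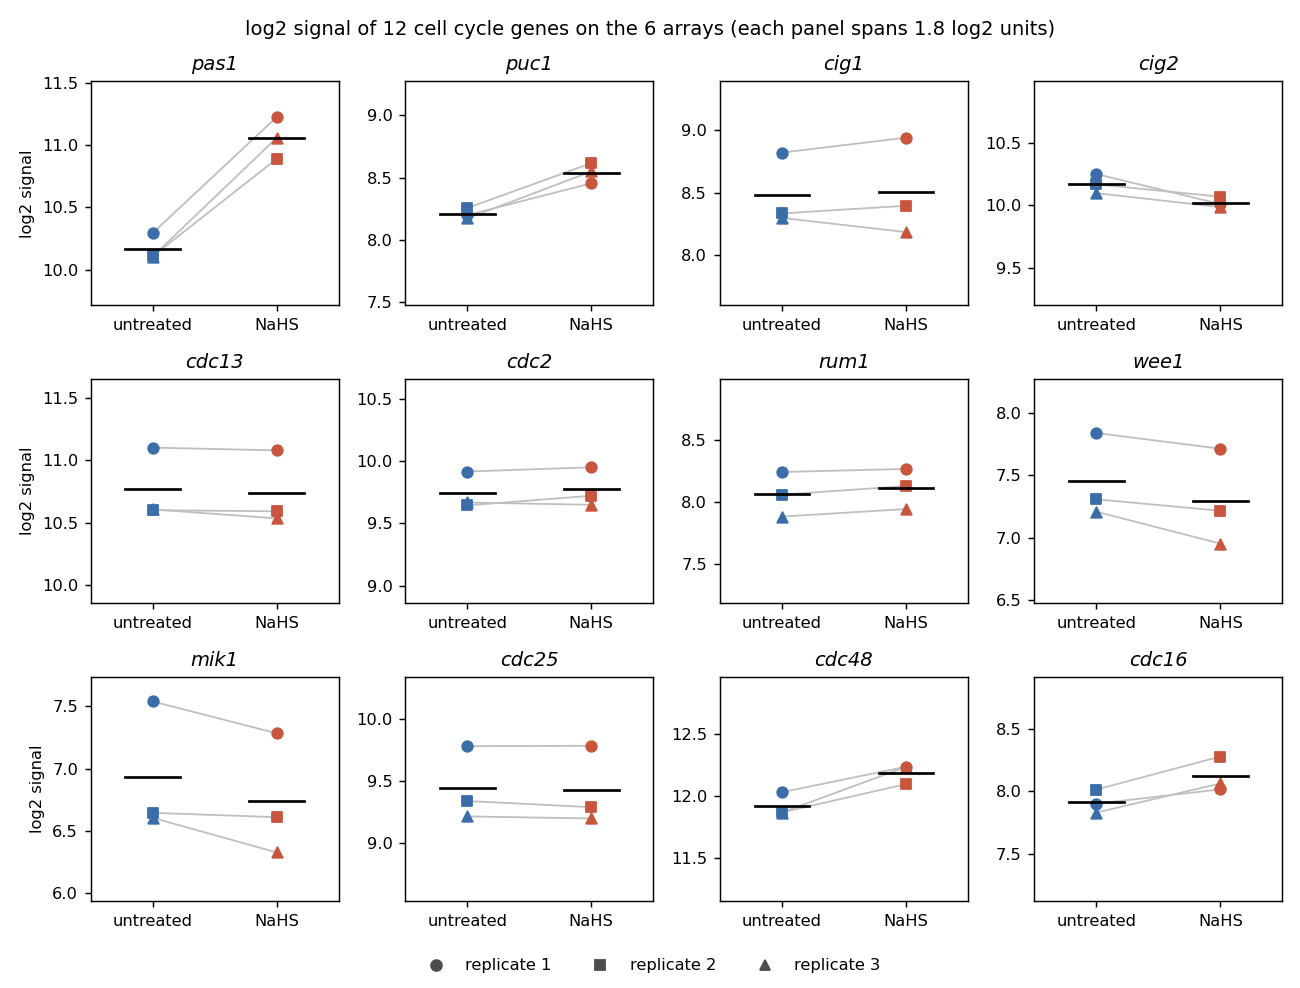
log2 signal (y axis) of 12 genes in the untreated and NaHS cultures (x axis), with 1 point per array, the marker giving the replicate number, grey lines joining cultures of the same number and black bars the group means (n = 3). Each panel spans 1.8 log2 units. The NaHS points of pas1, puc1, cdc48 and cdc16 all lie above their untreated points. In cdc13, cig1, cdc25, wee1 and mik1 replicate 1 lies above replicates 2 and 3 in both groups. Replicate 1 does so by less in pas1, cdc2, rum1 and cdc48.

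The 11 genes of G1/S transcription and DNA replication had differences between -0.18 and 0.14 with a median of 0.0098, and none passed the limma test, nor did any reach an unadjusted p below 0.05. The lowest values were those of cdc18 and cdc22. The gene cdc18 encodes a factor that licenses replication origins, and its log2 signal went from 9.30 ± 0.22 to 9.12 ± 0.26 (SD, n = 3 each), a difference of -0.18. The gene cdc22 encodes the large subunit of ribonucleotide reductase, which makes deoxynucleotides, and read 11.79, 11.66 and 11.58 without and 11.55, 11.50 and 11.46 with NaHS. Its groups did not overlap, and the difference of -0.17 (standard error 0.08) had a limma adjusted p of 0.284. The same held for cdc45, whose product belongs to the replicative helicase, with 9.74, 9.71 and 9.66 against 9.57, 9.61 and 9.51 and a difference of -0.14 (adjusted p = 0.303). The highest value was that of cdc6, which encodes the catalytic subunit of DNA polymerase delta, at 0.14 (standard error 0.08, adjusted p = 0.367). Further subunit genes of that polymerase, cdc1 and cdc27, had differences of -0.08 and -0.01. The MBF gene cdc10 itself was at 8.98 ± 0.14 and 8.99 ± 0.13 (SD, n = 3 each), a difference of 0.0098. The remaining genes had small positive differences. They were cdc24, a replication factor gene, with 0.11, cdc20, for the catalytic subunit of polymerase epsilon, with 0.09, cdc17, for DNA ligase, with 0.08, and cdc23, for the Mcm10 protein, with 0.05.

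The 4 MBF target genes among the members, cdc18, cdc22, cig2 and mik1, thus all had negative differences, between -0.19 and -0.15, and in each of them the NaHS array was lower in all 3 replicate numbers. With replicates 2 and 3 crossed, which their numbers do not exclude, this did not hold for mik1. None of the 4 passed the test in either fit, and 25.7% of the 35 genes, against 30.2% of all tested probe sets, were lower in all 3 replicate numbers. A list of 20 other measured genes held parts and regulators of MBF as well as targets. It was mixed in direction, with 12 positive and 8 negative differences and a median of 0.04. Among them were the replication licensing gene cdt1 (0.11), the gene for the small subunit of ribonucleotide reductase suc22 (0.07), the MBF co-repressor gene nrm1 (0.17) and rep2, for an activating partner of MBF (-0.10). With the replicate number as a block limma called 2 of the list lower, spd1 (-0.18, adjusted p = 0.0389) and ctp1 (-0.16, adjusted p = 0.0428). It called 1 higher, psm3 (0.20, adjusted p = 0.0449).

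The 4 members that belong to the septation initiation network had positive differences, none of which passed the limma test (0 of 4 also at an unadjusted p below 0.05). Of 15 other measured genes listed with the network 10 had positive and 5 negative differences, and of the 4966 tested probe sets 2613 were positive. The largest was that of cdc16, which encodes a part of the GTPase-activating complex that keeps the network off. It read 7.90, 8.01 and 7.83 in untreated cells and 8.01, 8.28 and 8.06 after NaHS, a difference of 0.20 (standard error 0.10, adjusted p = 0.307), and it passed with the replicate block (adjusted p = 0.0411). Here the lowest NaHS array was only just above the highest untreated one. For cdc11, a scaffold of the network at the spindle pole body, the values were 8.93, 8.99 and 8.89 and then 9.06, 9.05 and 9.07, a difference of 0.13 (adjusted p = 0.334). The kinase gene cdc7 and cdc14, whose product binds the kinase Sid1, had differences of 0.0038 and 0.02.

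The 6 genes of the contractile ring, actin and polarity had differences between -0.04 and 0.13 and a median of 0.0041. The tropomyosin gene cdc8 had the highest value. It read 12.24, 12.19 and 12.26 in untreated cells and 12.32, 12.33 and 12.42 after NaHS, with no overlap and a difference of 0.13 (limma adjusted p = 0.342). The myosin light chain gene cdc4 had the lowest, at -0.04. The profilin gene cdc3, the formin gene cdc12, cdc15, for a membrane-binding F-BAR protein of the ring, and cdc42, for the GTPase of cell polarity, lay between -0.02 and 0.0055. In all 6 genes the 95% interval lay inside a 1.5-fold change in either direction.

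Of the remaining genes, cdc48 had the largest difference. It encodes an ATPase that pulls ubiquitin-marked proteins out of complexes and membranes, and it acts well beyond the cell cycle. It read 12.03, 11.87 and 11.87 without and 12.23, 12.09 and 12.23 with NaHS. The groups did not overlap, and the difference of 0.27 (standard error 0.08), 1.20-fold, did not pass without a block (limma adjusted p = 0.13) and passed with it (adjusted p = 0.0242). The centrin gene cdc31 had a difference of 0.10, and the splicing factor genes cdc5 and cdc28 had 0.04 and -0.04.

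Counted without a test, the lowest NaHS array exceeded the highest untreated one in 6 of the 35 genes, pas1, puc1, cdc48, cdc16, cdc11 and cdc8. This was 17.1%, where 14.6% of all tested probe sets were so. The highest NaHS array was below the lowest untreated one in 3 genes, cig2, cdc22 and cdc45, which was 8.57% against 13.7%. Both shares were near or under those of the array as a whole. With the replicate number as a block, 4 genes were called higher, pas1, puc1, cdc48 and cdc16, and none lower. That was 11.4% and 0 against 16.3% and 16.4% of all tested probe sets. For 30 of the 35 genes the 95% interval of the fit without a block lay within a 1.5-fold change in either direction, against 65.4% of all tested probe sets. The exceptions were pas1, whose whole interval was above 1.5-fold, and cig1, wee1, mik1 and cdc18, whose intervals reached past 1.5-fold in that fit. With the block the intervals of these 4 genes were narrower and lay within 1.5-fold, from -0.14 to 0.19 for cig1, -0.30 to -0.02 for wee1, -0.36 to -0.02 for mik1 and -0.33 to -0.03 for cdc18 on the log2 scale.

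In many of these genes, as over the whole array, replicate 1 stood further from replicates 2 and 3 than the groups stood apart. In the untreated group, replicate 1 differed from the mean of replicates 2 and 3 by 0.91 in mik1, 0.58 in wee1, 0.51 in cig1 and 0.50 in cdc25 and cdc13. In the NaHS group the same offsets were 0.81, 0.63, 0.65, 0.54 and 0.52. These 5 regulators were thus higher in replicate 1 by about the same amount with and without NaHS. With cdc18 (0.38 and 0.41) and cdc20 (0.33 and 0.30), 7 of the 35 genes (20%) were over 0.3 higher in replicate 1 of both groups, and none was over 0.3 lower in both. Among all tested probe sets 15.1% were over 0.3 higher and 10.1% over 0.3 lower. Of the cyclins, pas1 was offset by 0.19 and 0.25 and puc1 by -0.01 and -0.13. The ring protein gene cdc15 lay on the other side, at -0.27 and -0.47. In 20 of the 35 genes (57.1%, against 51.7% of all tested probe sets) both offsets were larger than the difference after NaHS. Among them were cdc2, cdc13, cdc25, cig1, rum1, wee1 and mik1. An offset sets 1 array against the mean of 2, while the difference sets means of 3 arrays against each other. Offsets therefore spread more even without a replicate effect. Replicate 1 stood apart across the whole array, and the cause of these offsets was not tested.

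**Figure D3:**
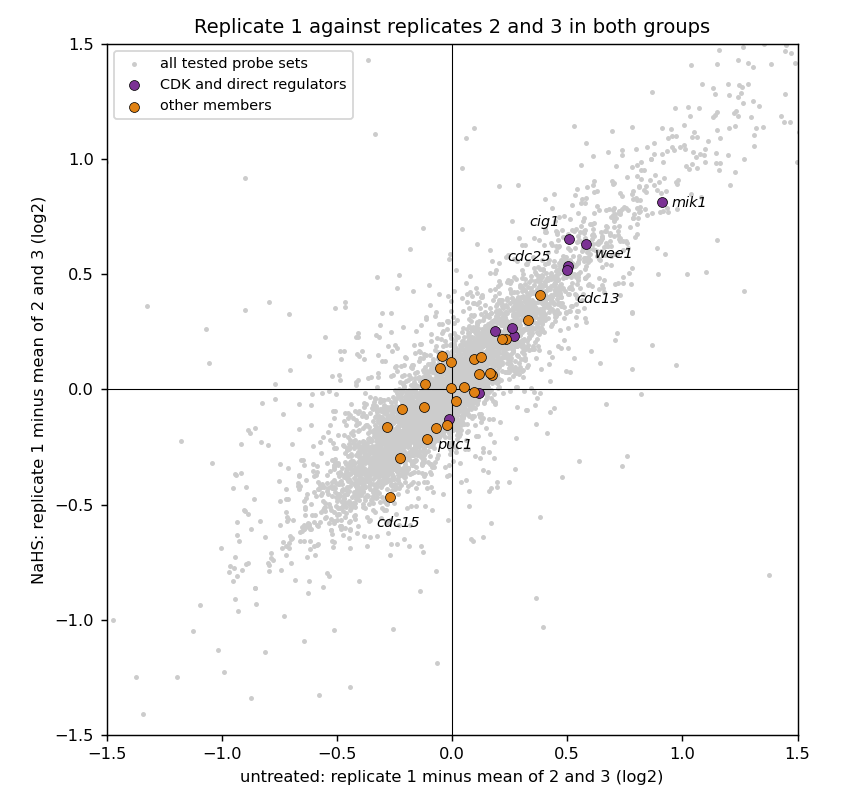
Offset of replicate 1 from the mean of replicates 2 and 3 in log2 signal, in the untreated group (x axis) and the NaHS group (y axis). Each point is a probe set, grey for all tested, purple for the CDK and its direct regulators and orange for the other members. The purple group includes pas1, whose product pairs with the kinase Pef1. Outside the axes lie 94 grey points. The offsets of mik1 (0.91 and 0.81), wee1, cig1, cdc13 and cdc25 lie at the upper right, those of puc1 near the centre and that of cdc15 at the lower left.

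Genes that work with the members were read from lists drawn up by function. Some genes, such as nuc2 and slp1, were in more than 1 list. The call of nuc2 with the replicate block is counted under both the septation initiation network and the anaphase promoting complex. In 6 lists none of the measured genes passed the limma test in either direction. These were 26 other genes of the CDK network (5 at an unadjusted p below 0.05), 20 of MBF and its targets (1), 40 other replication factors (4), 15 of the septation initiation network (0), 47 of the ring and septum (9) and 27 of the anaphase promoting complex and chromosome separation (3). With the replicate number as a block, calls were made in each list, where 16.3% of all tested probe sets were called higher and 16.4% lower. The block gave 5 higher and 0 lower in the CDK network, 1 and 2 for MBF and its targets, 3 and 7 for replication, 1 and 0 for the septation initiation network, 7 and 2 for the ring and septum, and 7 and 2 for the anaphase promoting complex and chromosome separation. The medians of their differences ran from -0.0056 for the CDK network to 0.13 for the anaphase promoting complex. The highest value in the CDK network was that of ppk18, for a kinase that promotes mitotic entry through the Igo1 protein, at 0.57 (limma adjusted p = 0.0523, and 0.00291 with the replicate block). The other cyclin genes of that list, mcs2 and pch1, which act with kinases of RNA polymerase II, had differences of 0.0011 and 0.02. The kinase genes mcs6 and cdk9 of the same list had differences of 0.54 and 0.24. Neither passed (limma adjusted p = 0.217 and 0.115), and both passed with the replicate block (adjusted p = 0.00906 and 0.0167). Of the 26 differences in that list 13 were positive and 13 negative.

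Markers of mating and meiosis, the states outside the mitotic cycle, moved with NaHS in part. Of 22 measured markers 3 rose and none fell (13.6% and 0), against 3.97% and 3.66% of all tested probe sets. With the replicate block 4 were called higher (18.2%) and 1 lower (4.55%), against 16.3% and 16.4% of all. Of the 22 differences 14 were positive and 8 negative. All cultures were of mating type h-, and the markers were counted alike without sorting them by mating type. The 1 called lower was map2, with all NaHS arrays below all untreated ones. Its difference was -0.67 (limma adjusted p = 0.122, and 0.0163 with the block). The 3 that rose without a block were mei2, for the RNA-binding protein that starts meiosis (0.61, limma adjusted p = 0.0085), mam1, for the transporter that exports M-factor (0.75, adjusted p = 0.0132), and dmc1, for a recombinase of meiosis (0.58, adjusted p = 0.0351). With 1 array left out these calls held in part. That of mei2 was lost without untreated replicate 3 (adjusted p = 0.0622), that of mam1 without untreated replicate 3 (0.0737) or NaHS replicate 2 (0.062), and that of dmc1 in every such fit except the one without untreated replicate 1, with an adjusted p of up to 0.154. The summed linear signal of the 22 markers was between 4806 and 6165 in the untreated arrays and between 5426 and 7185 in the NaHS arrays, so that the ranges overlapped. Between cultures of the same number it was higher with NaHS in all 3, at 4806 and 5426, 6165 and 7185, and 6159 and 7014 in replicates 1, 2 and 3. Strong markers weigh most in this sum, so it does not stand for the 22 markers alike. The mean log2 signal of mfm2 went from 10.59 to 10.92 (limma adjusted p = 0.73) and that of mam1 from 8.31 to 9.06. The marker mei3 was blank on 1 array of each group, and its highest value, 3.21, was under the background level of 3.67. The meiotic cyclin gene rem1 read 0.69, 2.66 and 3.13 without and 2.89, 3.23 and 3.67 with NaHS, none of them above the background level of 3.67. The other meiotic cyclin gene of the list, crs1, had a difference of -0.45 (adjusted p = 0.475), which passed when NaHS replicate 3 was left out (adjusted p = 0.0385). The part of these markers in the rise of pas1 was not tested.

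**Figure D4:**
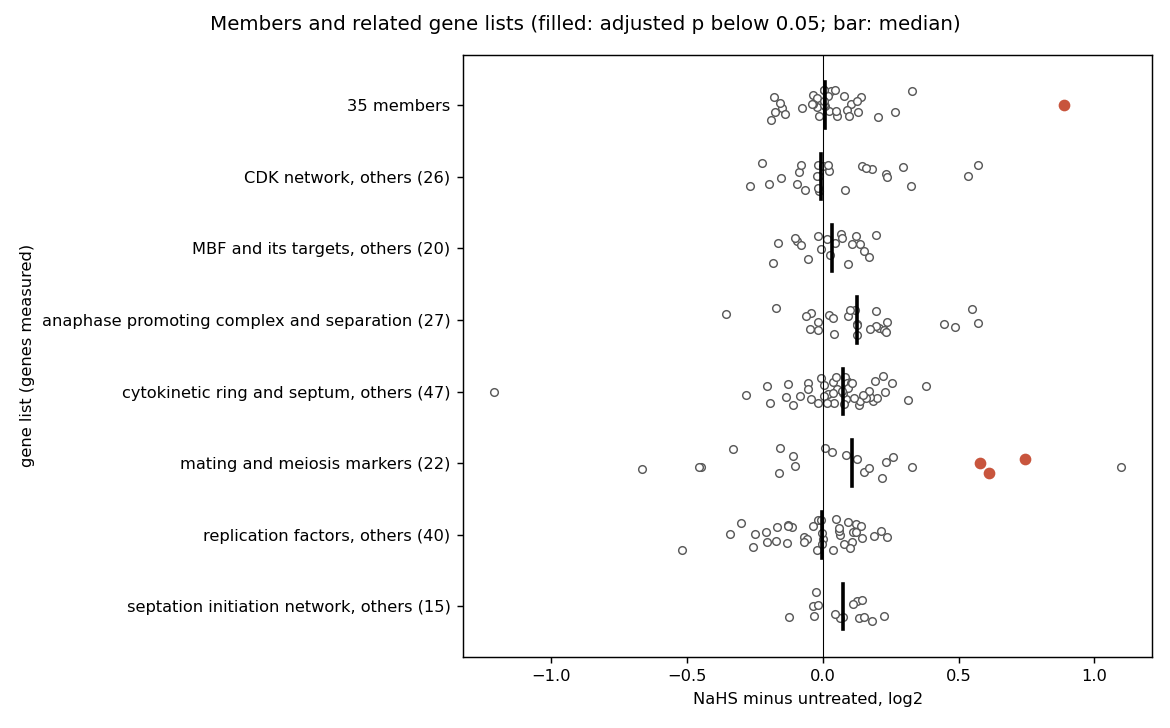
Difference after NaHS in log2 signal (x axis) of the 35 members and of 7 lists of related genes (y axis, with the number of genes measured). Each point is a gene, filled where the limma adjusted p was below 0.05, and black bars are medians. The filled points are pas1 among the members and mei2, mam1 and dmc1 among the mating and meiosis markers.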

How the data were processed

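RNA of 6 cultures was hybridised by the authors' array service to 1 array each. The authors deposited log2 signals for each probe set. They come from MAS5 per the labels, whose version and target level of scaling are not stated there. The annotation of 2016 names 2937 of 10928 probe sets as S. pombe genes, 2917 of them as 1 gene and 20 as several, and gene IDs were updated to the reference ASM294v3. Tested were these and 2029 unlisted probe sets with a mean above 3.67, 4966 in all. That level is the 99th percentile of the means of 2601 S. cerevisiae probe sets. Blanks (23.59% of all cells, 0 in the members) were set to 0. Each member had 1 probe set.

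The 2 groups were compared in R 4.3.3 by limma 3.58.1 (two-sided, 4 residual and 2.02 prior degrees of freedom, Benjamini-Hochberg over all tested probe sets), without a block. The methods of the study name SAM, which was not run here. The script was tested on simulated data. Tables and plots were made with Python 3.11.15, NumPy 2.4.6, pandas 2.3.3 and matplotlib 3.10.9. Deviations of same-numbered cultures from their group means correlated at 0.867, 0.578 and 0.598 over the tested probe sets, all above the 0.1 set for taking the numbers as pairs. For replicates 2 and 3 the crossed values were as high (0.592 and 0.637), so this check could not decide how those cultures pair. The main fit, as planned, does not use the pairing, and the block is an alternative. The block is given for members whose call it changes and for some other members. For the lists it is given as counts and for some of the genes named from them.

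Named were members called with or without the block and the CDK with its direct regulators, then the highest and lowest member of each role and up to 4 called genes of each other list. The remaining genes were chosen after their values were seen. Among them were pef1, ppk18, mcs2, mcs6, pch1, cdk9, cdt1, suc22, nrm1, rep2, spd1, ctp1, psm3, map2, mfm2, rem1 and crs1. Members and lists were chosen with earlier results of these data known. The promoter motifs planned were not searched, and a further planned gene list is not reported here. Probe set levels were not compared between genes. Alternatives were the block, leaving out each array, quantile normalization, median centring, other sets of probe sets, values raised to background, a trended robust fit and a fold above 1.5.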

Additional observations from a re-analysis of the deposited data

How the results depend on the processing

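With the replicate block, 4 members were called higher in place of 1, and with low values raised to background 2 were, pas1 and puc1. With 1 array left out the number was 0 to 1, and no member was called lower under any alternative. The median difference of the members, 0.0098, ran from -0.0097 to 0.0807 with 1 array left out. The cause of the added calls was not tested. Over all tested probe sets, 379 were called, against 1622 with the block, 95 to 224 with 1 array left out, 169 when annotated S. pombe probe sets alone were tested and 199 with a fold above 1.5. Some genes that did not pass changed sign, while puc1, cdc48, cdc16 and cig2 kept theirs under every alternative. With 1 array left out the difference ran from -0.0376 to 0.14 for rum1, -0.0576 to 0.12 for cdc2, -0.19 to 0.19 for cig1, -0.20 to 0.15 for cdc25, -0.21 to 0.13 for cdc13, -0.37 to 0.036 for wee1 and -0.46 to 0.12 for mik1, and with quantile normalization it was -0.0057 for rum1 and -0.0321 for cig1. The fits with 1 array left out have fewer arrays, and the cause of the changes of sign was not tested. The block changed no other call among the members. The number of arrays limits the precision, while all members were well above background. In the fit without a block the spread between replicate numbers limits the precision too. For cdc25 the standard error was 0.21 in that fit and 0.04 with the block.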
